A study of Mus musculus with 28 samples.

Results

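Gata4, Gata6, Cdx1, Cdx2, Foxa1, Foxa2, Foxa3 and Creb3l3 were followed through every library as the gut and liver transcription factors other than nuclear receptors. They were chosen by name, with earlier results of these data known, and make up 8 of the 55011 gene symbols in the count table. Libraries were made from medullary thymic epithelial cells (mTECs), epithelial cells of the thymus known for expressing genes that belong to other organs. All mice were C57BL/6, and no age was used here. Wild-type thymus gave an entero-hepato gate (n = 3) and mTECs outside that gate (n = 3). The other 22 libraries came from Foxn1cre(+/-) mice, in which Cre is driven by Foxn1, a gene of thymic epithelium. From these mice, post-Aire mTEClo came as 4 control libraries, Hnf4a(fl/+)Hnf4g(+/-), 3 Hnf4a-removed libraries, Hnf4a(fl/fl)Hnf4g(+/-), 3 Hnf4g-removed libraries, Hnf4a(fl/+)Hnf4g(-/-), and 4 double-mutant libraries, Hnf4a(fl/fl)Hnf4g(-/-). The mTEChi subset was sorted from the control and the double-mutant genotype, with 4 libraries of each. Every control thus carried 1 floxed Hnf4a allele, 1 mutant Hnf4g allele and Cre, and the 3 mTEClo comparisons share the same 4 control libraries. Each library held 1000 sorted cells.

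GATA4 and GATA6 are zinc finger proteins that act in the endoderm of the embryo and in the small intestine, liver and stomach of the adult. CDX1 and CDX2 are caudal-type homeobox proteins that set intestinal identity, and the FOXA proteins are forkhead pioneer factors that open chromatin in liver, gut, pancreas and lung. CREB3L3 (CREB-H) is a bZIP factor held in the endoplasmic reticulum membrane of hepatocytes and enterocytes and released by cleavage in the Golgi, after which it activates genes of lipid handling and the acute phase. HNF4A and HNF4G, the factors removed in the mutants, are nuclear receptors that work beside these proteins in gut and liver.

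Total counts were 4330120 to 8342583 per library. The 7 markers of thymic epithelium (Epcam, Krt8, Krt18, Krt5, Foxn1, Cldn3 and Cldn4) summed to 3798 to 8654 CPM (reads scaled to a common library total) and none was at 0 in any group. The targeted genes were checked first. Hnf4g was 12.7 ± 2.73 CPM (SD, n = 4) in control mTEClo, 8.12 ± 0.776 (n = 3) with Hnf4g removed and 5.23 ± 2.24 (n = 4) in the double mutant. It was as low with Hnf4a removed, at 7.83 ± 1.60 CPM (n = 3). Hnf4a was 4.63 ± 2.05 CPM in control mTEClo, 3.42 ± 1.13 with Hnf4a removed, 3.36 ± 0.891 with Hnf4g removed and 3.15 ± 0.846 in the double mutant. The level of neither gene thus told the 2 single removals apart. In mTEChi, Hnf4g was 19.7 ± 3.22 CPM in control and 7.54 ± 3.59 in double-mutant libraries, and Hnf4a was 4.44 ± 2.99 and 4.08 ± 2.32. Neither gene was called in a mutant comparison, with adjusted p between 0.0633 and 0.964 by edgeR's quasi-likelihood test. Reads from exons outside a deleted stretch still count, so these values do not check the deletion. In bulk libraries, fewer cells of a type and less RNA per cell cannot be told apart.

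Per kilobase of exon, Cdx1 was the highest of the 8 genes in every group. In the entero-hepato gate Cdx1 stood at 68.4 ± 13.2 CPM per kb and Creb3l3 at 46.1 ± 13.3, then Gata4 at 6.23 ± 1.36 and Foxa1 at 5.82 ± 0.562. The remaining genes there were Foxa3 at 3.89, Cdx2 at 2.11, Foxa2 at 1.16 and Gata6 at 0.118 CPM per kb. The order was different in control mTEClo, where Cdx1 (39.2 CPM per kb) was followed by Foxa1 (6.68), Foxa2 (3.93) and Foxa3 (3.06), with Creb3l3 at 1.47, Gata4 at 1.31 and Cdx2 at 0.891. The forkhead genes thus ranked next to Cdx1 in mTEClo, and Creb3l3 did so in the entero-hepato gate and in control mTEChi (6.90 CPM per kb). All values below are TMM-scaled CPM that are not divided by length.

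**Figure D1:**
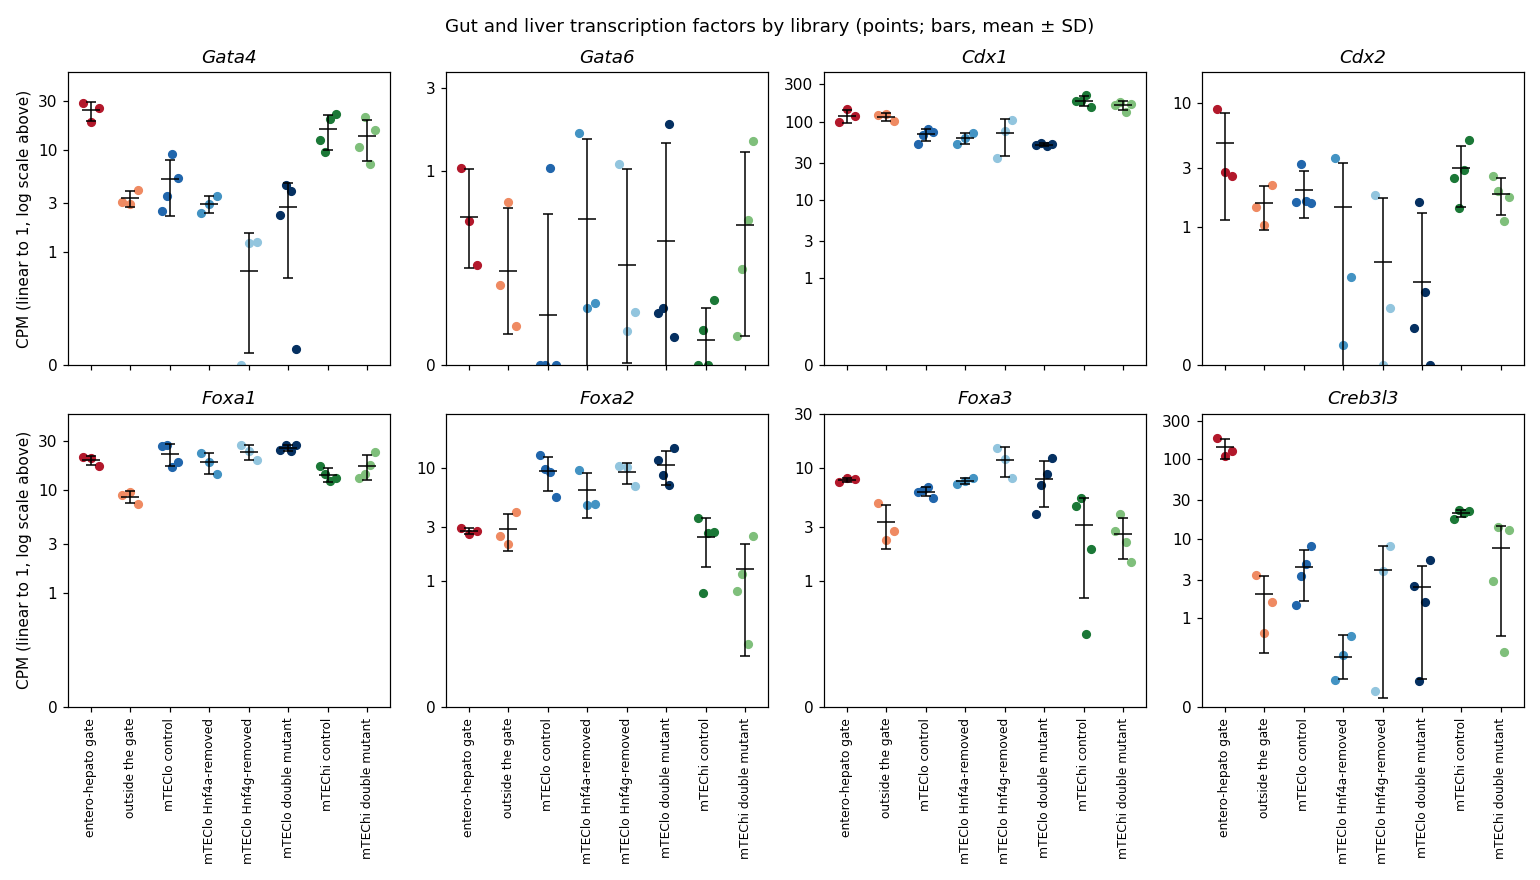
TMM-scaled CPM of each gene (y axis, linear from 0 to 1 and logarithmic above) in the 8 groups (x axis); points are libraries and bars are the mean ± SD. Creb3l3 is above 100 CPM in the 3 entero-hepato libraries only, Gata4 is high there and in mTEChi, and Foxa2 is higher in the 4 mTEClo groups than in the other 4 groups.

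In the entero-hepato gate, Creb3l3 and Gata4 were far above the level outside it, Foxa1 and Foxa3 were about 2 times higher, and Cdx1, Cdx2 and Foxa2 were not called. Of the 7 genes that passed the filter on low counts, 4 were called (adjusted p under 0.05) and all 4 were higher. Among all 16811 genes tested, 44.5% were called, 22.7% as higher and 21.8% as lower, so a call is common in this comparison and the sizes say more than the count.

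Gata4 (chr14:63198922-63271692, GRCm38, minus strand, protein coding) was 29.0, 18.5 and 25.5 CPM in the entero-hepato gate and 3.11, 2.94 and 4.02 outside it. The gates did not overlap, and Gata4 was higher by 2.83 on the log2 scale (SE 0.29, adjusted p = 9.12e-05). Gata6, on chromosome 18, had 0 to 14 reads in any library and did not pass the filter in any comparison. Its levels were 1.04, 0.742 and 0.516 CPM in the gate and 0.415, 0.840 and 0.201 outside it, which overlap. An antisense gene, 1010001N08Rik, overlaps Gata6, and the libraries do not mark strand, so even these reads cannot be assigned with certainty. Of this pair of paralogs, then, Gata4 carried most of the reads in both gates.

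Cdx1, also on chromosome 18, was 97.5, 144 and 118 CPM in the gate and 120, 126 and 102 outside it. The gates overlapped, and the log2 difference was 0.033 (SE 0.16, 95% interval -0.27 to 0.34, adjusted p = 0.885). Cdx2 (chr5:147300805-147307270, minus strand), the CDX gene required for intestinal identity in the embryo, was much lower. It stood at 8.96, 2.78 and 2.58 CPM in the gate and at 1.45, 1.05 and 2.21 outside it. All 3 gate libraries were above the others, but replicate 1 was far above the remaining 2, and the log2 difference of 1.56 (SE 0.64) was not called (adjusted p = 0.0757). Without that library it was 0.77 (adjusted p = 0.346).

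Foxa1 (chr12:57540628-57546916, minus strand) was 20.6, 20.2 and 17.2 CPM in the gate and 8.92, 9.45 and 7.24 outside it, with no overlap. It was higher by 1.16 on the log2 scale (SE 0.24, adjusted p = 0.00425). Foxa3 (chr7:19013284-19023538, minus strand) was 7.50, 8.16 and 8.08 CPM against 4.98, 2.31 and 2.82. The groups were apart by a log2 difference of 1.21 (SE 0.41, adjusted p = 0.0388), a call that was lost without any 1 library other than outside-gate replicate 1 (adjusted p = 0.0704 to 0.113). Foxa2 (chr2:148042877-148046969, minus strand) was 2.92, 2.60 and 2.75 CPM against 2.49, 2.10 and 4.02, and its log2 difference was -0.072 (95% interval -0.96 to 0.82, adjusted p = 0.912). Of the 3 FOXA genes, Foxa1 and Foxa3 were called and Foxa2 was not, and the difference between them was not tested.

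Creb3l3 (chr10:81084324-81098874, minus strand) was 184, 108 and 126 CPM in the entero-hepato gate and 3.53, 0.840 and 1.61 outside it. The mean of 139 ± 40.0 CPM against 1.99 ± 1.38 gave a log2 difference of 6.09 (SE 0.37, adjusted p = 5.55e-06). No other group came near the gate: the next, control mTEChi, reached 22.8 CPM. The fit scaled the gates by TMM factors that lay apart, at 0.809 to 0.843 in the gate and 1.07 to 1.10 outside it. On plain library totals, an alternative added after seeing the data, the median log2 difference of all genes moved from -0.047 to -0.41, and 27.7% of called genes were higher instead of 51.1%. On that scale Cdx1 was -0.33 (adjusted p = 0.120) and Foxa3 was 0.85 (adjusted p = 0.113), while Gata4, Foxa1 and Creb3l3 stayed called as higher.

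The start regions of Creb3l3 are shown because it had the largest difference between the gates. Windows of 300 bases, from 250 before to 50 after a RefSeq (GRCm38.p6) start, were used here for 5 of the 8 genes. Windows of the other genes were not examined, which does not mean that RefSeq lacks a start for them. Creb3l3 has a pair of such windows, at chr10:81098823-81099122 (the first base of the gene) and at chr10:81092542-81092841 (a start inside the gene), both read from the minus strand. Capitals mark a match on the opposite strand to TGTTTGC, a forkhead-type motif, in the first and to CAAAGTC, the core of the HNF4 motif, in the other.
Creb3l3, gene start: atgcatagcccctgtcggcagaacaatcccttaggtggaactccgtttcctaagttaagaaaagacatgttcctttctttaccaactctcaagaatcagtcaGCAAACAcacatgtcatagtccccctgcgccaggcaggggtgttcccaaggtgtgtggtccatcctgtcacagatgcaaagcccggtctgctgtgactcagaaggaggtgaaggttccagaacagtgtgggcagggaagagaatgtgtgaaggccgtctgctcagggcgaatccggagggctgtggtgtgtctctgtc
Creb3l3, inner start: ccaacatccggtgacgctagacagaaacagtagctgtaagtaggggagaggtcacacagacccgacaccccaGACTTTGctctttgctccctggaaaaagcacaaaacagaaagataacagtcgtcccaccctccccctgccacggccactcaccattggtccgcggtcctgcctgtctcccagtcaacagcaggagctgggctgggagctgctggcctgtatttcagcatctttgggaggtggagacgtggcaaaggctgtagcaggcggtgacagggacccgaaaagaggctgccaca
The forkhead-type match lies at -148 to -142 and the HNF4 core at -178 to -172 from the respective start. Both strands of 32851 windows of the same length were searched, and 5.065% held TGTTTGC and 4.441% held CAAAGTC. The latter was added to the motifs after part of the Creb3l3 window had been seen. Matches of this length are common, and a match describes letters, not a bound site.

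TGTTTAC, a second forkhead-type motif held by 3.65% of the windows, matched on the opposite strand in Foxa1 (chr12:57546062-57546361) and in Cdx2 (chr5:147307200-147307499), both on the minus strand. The 2 windows are shown because both carry the same letters in capitals. Foxa1 was called as higher in the gate (log2 difference 1.16) and Cdx2 was not (1.56). The difference between the 2 genes was not tested.
Foxa1: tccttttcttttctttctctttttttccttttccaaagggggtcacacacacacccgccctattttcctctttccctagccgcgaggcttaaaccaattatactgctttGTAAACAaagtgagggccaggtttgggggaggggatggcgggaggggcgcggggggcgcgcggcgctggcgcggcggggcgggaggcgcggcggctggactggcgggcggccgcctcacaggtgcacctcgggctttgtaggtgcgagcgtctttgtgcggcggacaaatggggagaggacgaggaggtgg
Cdx2: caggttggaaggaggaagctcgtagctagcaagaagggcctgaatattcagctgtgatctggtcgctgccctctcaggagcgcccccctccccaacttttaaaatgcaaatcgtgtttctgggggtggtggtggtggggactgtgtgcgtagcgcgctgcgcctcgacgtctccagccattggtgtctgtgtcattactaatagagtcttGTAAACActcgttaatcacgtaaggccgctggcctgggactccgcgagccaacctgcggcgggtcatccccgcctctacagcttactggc
The match lies at -141 to -135 in Foxa1 and at -40 to -34 in Cdx2. The other motifs searched had no match in the windows of Cdx2, Foxa1, Foxa2, Foxa3 and Creb3l3. These were CAAAGTCCA, CAAAGTTCA and CAAAGGTCA for HNF4 (0.4749%, 0.3896% and 0.4779% of all windows), AGATAAG for GATA (3.044%), TTTATGG for CDX (2.749%), and TGACGTCA and TGACGTGG for CREB-type factors (1.79% and 0.6758%). CAAAGTC is contained in CAAAGTCCA.

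Genes held to be linked to these factors were counted from 4 lists of 60 genes, 7 of which are in more than 1 list. The lists were chosen with earlier results of these data known, so their counts are descriptive. The link of each gene was not checked here and no binding was measured. In the entero-hepato gate, 11 of 17 tested genes linked to CDX1 and CDX2 were higher and 1 was lower, with a median log2 difference of 3.30, where the median of all genes was -0.047. Cdh17, the liver-intestine cadherin, was 1249 ± 120 CPM against 56.0 ± 4.75, and Vil1, which bundles actin in brush border microvilli, was 626 ± 103 against 43.1 ± 3.23. Heph, the ferroxidase that lets enterocytes export iron, was 257 ± 29.5 CPM against 25.9 ± 3.25. The exception was Cdhr1, a cadherin of photoreceptors whose place in the CDX list was not checked, at 53.4 ± 15.0 CPM in the gate and 321 ± 13.4 outside it.

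Of 13 tested genes linked to GATA4 and GATA6, 8 were higher and 1, Cyp7b1, was lower (median 2.04). The apolipoprotein genes led, with Apoc3 at 610 ± 113 CPM in the gate against 9.99 ± 2.04 outside it and Apoa4 at 1003 ± 295 against 29.8 ± 5.02. Of 16 genes linked to FOXA, 8 were higher and none lower (median 2.05), among them Pck1, the rate-limiting enzyme of gluconeogenesis (299 ± 46.6 CPM against 14.1 ± 7.92), and Apob, the structural protein of chylomicrons (220 ± 153 against 12.9 ± 5.18). Of 15 genes linked to CREB3L3, 11 were higher and 2 lower (median 2.52). The lower genes were Fgf21 and Crp, with log2 differences of -1.25 to -0.96 and -1.45 to -0.90 in fits without 1 library. Crp lost its call without entero-hepato replicate 2 or outside-gate replicate 1 or 3 (adjusted p = 0.0605 to 0.0828), and Fgf21 kept its call in all of them. Apoa1, the main protein of high-density lipoprotein and a member of several lists, was 837 ± 226 CPM against 47.7 ± 3.91, and Saa1, an acute phase protein, was 937 ± 342 against 47.8 ± 10.6.

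The CREB3 family was mixed. Of 6 other family and protease genes tested, Creb3 was higher in the gate, as Creb3l3 was (135 ± 12.1 against 49.5 ± 3.67 CPM), while Creb3l4 (3.63 ± 0.114 against 12.4 ± 0.373) and Mbtps1, the site-1 protease that cleaves these factors (78.6 ± 11.9 against 111 ± 12.8), were lower. The call of Mbtps1 was lost without entero-hepato replicate 1 or 2 or outside-gate replicate 1 (adjusted p = 0.0544 to 0.0716). No gene of the GATA family list was called among 4 tested with edgeR. Gata5 was 4.49 ± 1.64 CPM in the gate and 1.71 ± 0.813 outside it. Of 25 other gut and liver transcription factors, 9 were higher and 4 lower, with a median of 0.08. Those of smallest p were Tcf7l2, the Wnt effector (413 ± 19.8 against 92.2 ± 3.49 CPM), Elf3, an epithelial ETS factor (741 ± 62.1 against 237 ± 19.2), and Klf5 (87.8 ± 3.78 against 35.0 ± 4.63).

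Markers of other cell populations differed between the gates too. The 10 Aire-stage genes were Aire, Cd80, Cd86, Cd40, H2-Ab1, H2-Aa, Ciita, Fezf2, Tnfrsf11a and Cd74. They summed to 41325 to 46974 CPM in the gate and 21688 to 24130 outside it, with 6 of 10 higher and 2 lower. This sum was not split by gene and does not stand for Aire alone. All 11 proliferation genes were lower, with sums of 46.9 to 67.6 CPM against 751 to 941, and 13 of 14 tuft markers were lower, with sums of 227 to 564 against 2810 to 4135. Of the microfold markers 10 of 11 were higher, with sums of 6390 to 6893 CPM against 2277 to 2428. Myeloid and dendritic markers summed to 1154 to 1533 CPM against 449 to 634, with 5 of 10 tested higher, and erythroid markers to 171 to 249 against 19.5 to 32.8, with 5 of 6 higher. Goblet and secretory markers summed to 9960 to 10628 CPM against 5416 to 5790, with 6 of 12 higher, and 9 of 10 ciliated markers were lower. Mitochondrial genes took 0.779% to 1.00% of the reads in the gate and 1.36% to 1.88% outside it, without overlap. Of these lists no marker was at 0 in either gate, and their part, and that of the mitochondrial share, in the levels of the 8 genes and the linked genes was not tested.

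**Figure D2:**
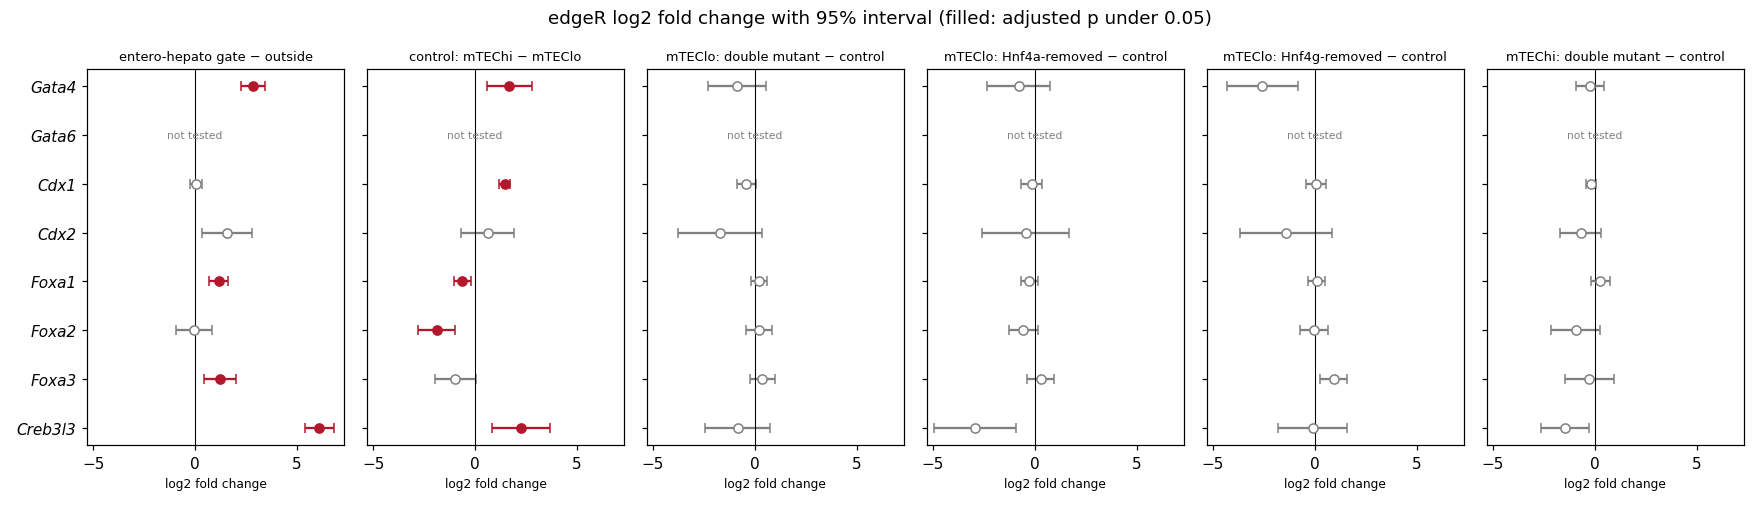
Log2 fold change from edgeR with its 95% interval (x axis) for each gene (y axis) in 6 comparisons; filled points have an adjusted p under 0.05. Filled points appear in the comparison of the wild-type gates and of mTEChi with mTEClo, and in none of the 4 mutant comparisons.

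Among the control libraries, mTEChi differed from mTEClo at 5 of the 7 genes tested, where 42.9% of 20095 genes were called, 22.4% as higher and 20.5% as lower. Gata4, Cdx1 and Creb3l3 were higher in mTEChi, and Foxa1 and Foxa2 were lower. The subsets and any difference in how they were prepared cannot be told apart.

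Gata4 was 12.4, 9.41, 20.0 and 22.3 CPM in control mTEChi and 2.54, 3.55, 9.05 and 5.33 in control mTEClo. The subsets did not overlap, although mTEClo replicate 3 came close to mTEChi replicate 2, and the log2 difference was 1.68 (SE 0.56, adjusted p = 0.0217). Gata6 was at 0 reads in 2 mTEChi and 3 mTEClo control libraries, which allows up to 0.401 to 0.540 CPM at 3 counts. Gata5, the third endodermal GATA gene and the only one of 4 in the family list to be called, was 5.40 ± 3.30 CPM in mTEChi and 0.784 ± 0.890 in mTEClo (log2 difference 2.80, SE 0.96, adjusted p = 0.0261). That call was lost without control mTEClo replicate 1 or 3 or control mTEChi replicate 2 or 3 (adjusted p = 0.0587 to 0.0731).

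Cdx1 was 185, 183, 216 and 153 CPM in mTEChi and 52.5, 67.4, 80.1 and 74.1 in mTEClo. Every mTEChi library had more than every mTEClo library, with a log2 difference of 1.46 (SE 0.13, adjusted p = 1.44e-07), the most precise of the 7. Cdx2 was 2.52, 1.45, 2.92 and 5.08 CPM against 1.60, 3.24, 1.63 and 1.58. These overlapped, and the log2 difference of 0.61 (95% interval -0.68 to 1.91) was not called (adjusted p = 0.476).

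The forkhead genes ran the other way. Foxa2 was 3.60, 0.904, 2.62 and 2.71 CPM in mTEChi and 13.0, 9.72, 9.05 and 5.47 in mTEClo, with no overlap and a log2 difference of -1.87 (SE 0.46, adjusted p = 0.00351). Foxa1 was 16.9, 14.1, 12.1 and 13.1 CPM against 26.6, 27.0, 16.8 and 18.6. One mTEClo library lay just under the highest mTEChi library, and the log2 difference was -0.63 (SE 0.21, adjusted p = 0.0232). Foxa3 was 4.68, 5.43, 0.583 and 1.92 CPM against 6.15, 6.48, 6.82 and 5.47. The mTEChi libraries were all lower but spread widely, and the log2 difference of -0.97 (SE 0.52) was not called (adjusted p = 0.142). It was called with limma-voom (-1.46, adjusted p = 0.0341).

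Creb3l3 was 17.8, 22.8, 20.7 and 21.9 CPM in mTEChi and 1.47, 3.39, 4.75 and 8.07 in mTEClo. The subsets did not overlap, and the log2 difference was 2.26 (SE 0.73, adjusted p = 0.0181). Single libraries decided several of these calls. Gata4 and Foxa1 lost theirs without control mTEClo replicate 1 or 2 or control mTEChi replicate 3 or 4 (adjusted p = 0.0525 to 0.0668 and 0.0544 to 0.0760). Creb3l3 lost its call without control mTEClo replicate 1 (adjusted p = 0.0545), which left 2 genes called.

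**Figure D3:**
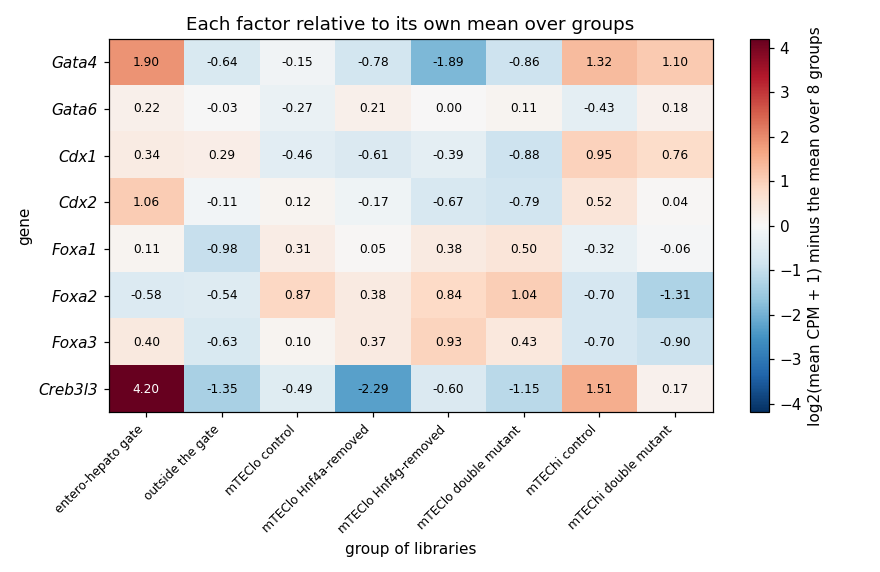
Log2(mean CPM + 1) of each gene (y axis) minus its own mean over the 8 groups (colour and printed value) for each group (x axis). Creb3l3 and Gata4 are highest in the entero-hepato gate, Cdx1 in mTEChi, and Foxa2 in mTEClo.

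In mTEChi, called genes of the linked lists were more often higher than lower. Counts of higher and lower genes were 7 and 1 of 13 for the GATA list (median log2 difference 1.15), 7 and 0 of 18 for the CDX list (0.95), 10 and 2 of 17 for the FOXA list (2.01) and 8 and 1 of 16 for the CREB3L3 list (0.89). Of all genes, 22.4% were called as higher and 20.5% as lower, with a median of 0.039. In the CDX list most genes (11 of 18) were not called. The genes linked to FOXA thus had a higher median in the subset in which Foxa1 and Foxa2 were lower. Pck1 was 47.8 ± 7.37 CPM in mTEChi and 11.6 ± 6.15 in mTEClo, and Apob was 12.9 ± 10.9 against 1.75 ± 0.743. The other gut and liver factors ran mixed, with 6 of 27 higher and 9 lower (median -0.33). Sox9, a factor of intestinal crypt and bile duct cells, was 93.9 ± 5.50 CPM in mTEChi and 442 ± 63.5 in mTEClo, Elf3 was 190 ± 12.3 against 704 ± 53.6, and Klf4 was 38.5 ± 4.14 against 139 ± 6.64.

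All 10 Aire-stage genes were higher in control mTEChi, with sums of 47076 to 49695 CPM against 7781 to 13786, as were all 11 proliferation genes (555 to 698 against 93.3 to 230). All 14 tuft markers were lower (639 to 995 CPM against 12315 to 16605). Myeloid and dendritic markers summed to 1684 to 2203 CPM against 470 to 787, with 10 of 12 higher, and fibroblast and pericyte markers to 719 to 801 against 147 to 267, with 7 of 11 higher and 1 lower. Thymocyte markers were higher at 9 of 11, and B cell markers were higher at 6 of 7 and lower at 1. Keratinocyte markers were lower at 7 of 10 and higher at 1, and ciliated markers were lower at 7 of 11 and higher at 3. Goblet and secretory markers were lower at 7 of 12 and higher at 1. Their sums were 4464 to 6318 CPM in mTEChi against 3438 to 4761 in mTEClo. Of these lists no marker was at 0 in either subset. Their part in the differences of the 8 genes and the linked genes was not tested.

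Removal of both HNF4 genes left none of the 8 genes called in mTEClo. By edgeR, 0 of 7 were called, DESeq2 and limma-voom also called 0, and the background was 0.74% of 18775 genes (0.581% lower). An unadjusted p under 0.05 by edgeR was found for 0 of the 7 and for 2315 of the 18775 genes. Gata4 was 2.31, 4.56, 3.97 and 0.148 CPM in the double mutant, which overlaps the controls (log2 difference -0.90, 95% interval -2.32 to 0.53, adjusted p = 0.689). Replicate 4 held a single Gata4 read. Creb3l3 was 2.58, 0.294, 1.59 and 5.33 CPM, again overlapping the controls (-0.85, interval -2.44 to 0.74, adjusted p = 0.751).

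Cdx1 was 50.2, 54.1, 48.2 and 51.1 CPM in double-mutant mTEClo. Only control replicate 1 fell in that range, and the log2 difference of -0.43 (SE 0.24, interval -0.89 to 0.031) was not called (adjusted p = 0.493). The Aire-stage sum was also low in these libraries, at 5297 to 6543 CPM against 7781 to 13786 in controls, with 0 of 10 genes called, as was the proliferation sum (58.6 to 81.3 against 93.3 to 230, with 0 of 11 called). Their part in the Cdx1 level was not tested. Cdx2 was 0.271, 1.62, 0.530 and 0 CPM, where the library at 0 reads allows up to 0.444 CPM. It overlapped the controls, with a log2 difference of -1.71 and an interval of -3.77 to 0.35 (adjusted p = 0.559).

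None of the forkhead genes was called in double-mutant mTEClo. Foxa1 was 24.3, 27.5, 23.8 and 26.9 CPM (log2 difference 0.20, interval -0.17 to 0.58), Foxa2 was 11.7, 8.67, 7.02 and 15.0 (0.18, interval -0.46 to 0.83), and Foxa3 was 3.93, 7.06, 8.87 and 12.4 (0.37, interval -0.25 to 0.98). All 3 overlapped the controls, with adjusted p = 0.706 to 0.890.

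**Figure D4:**
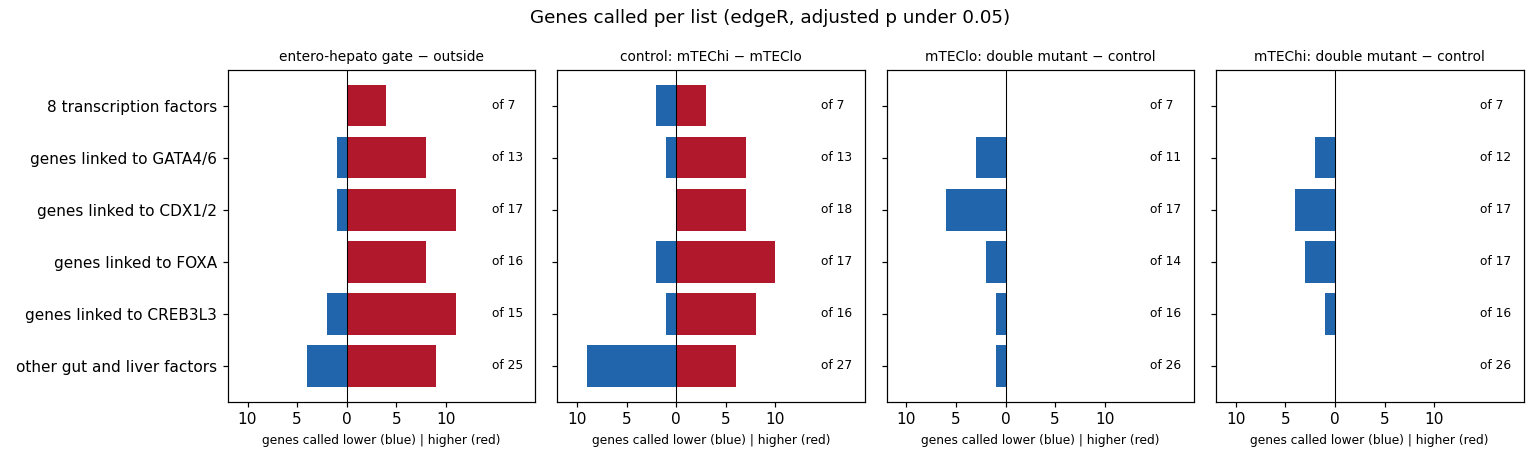
Number of genes called as lower (blue, left) and higher (red, right) in each list (x axis), out of the number tested printed at the right, for the 8 transcription factors and 5 other lists (y axis) in 4 comparisons. In both double mutants the factors have no call while 1 to 6 genes of each linked list are lower. A factor without a call may still have changed.

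Some linked genes fell in these libraries in which the factors were not called. For the factors, no call does not mean no change, since intervals were wide for Cdx2 (-3.77 to 0.35) and Creb3l3 (-2.44 to 0.74). In double-mutant mTEClo, 6 of 17 genes of the CDX list were lower and none higher (median -1.68). These were Lgals4, Mep1a, Vil1, Sis, Krt20 and Cdh17, and Mep1a, a brush border metalloprotease, went from 64.2 ± 18.4 to 7.82 ± 5.28 CPM. In the GATA list, 3 of 11 were lower (median -1.25): Fabp1, Apoa4 and Apoc3. In the FOXA list, 2 of 14 were lower (median -0.74), Serpina1b and the thyroid hormone carrier Ttr (11.1 ± 7.48 to 0.345 ± 0.513 CPM). In the CREB3L3 list Apoa4 was the only gene called of 16 (median -1.06; 29.1 ± 16.3 to 1.94 ± 0.585 CPM). The median of all genes was -0.0015, and of 26 other gut and liver factors only Tcf7l2 was called, at 58.6 ± 8.17 against 86.7 ± 13.4 CPM (log2 difference -0.57, adjusted p = 0.0458). Apoa4 and Apoc3 lost their calls without any 1 library other than control mTEClo replicate 1 or 2 (adjusted p = 0.0517 to 0.0626 and 0.0607 to 0.0861). Ttr lost its call without any 1 library other than those and double-mutant mTEClo replicate 1 (0.0574 to 0.0782), and Tcf7l2 without any other than control mTEClo replicate 1 (0.0539 to 0.159). The remaining 8 genes were called without each library in turn.

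Markers of other mTEC types moved in the same libraries. Of 11 microfold markers 4 were lower, with sums of 4198 to 4555 CPM in double-mutant mTEClo against 4701 to 6118 in controls. Of 14 tuft markers 2 were higher, Avil and Ptgs1, where 0.16% of all genes were called as higher. The tuft sums were 17943 to 18994 CPM against 12315 to 16605. No marker of either list was at 0 in either group, and their part in the fall of the linked genes was not tested.

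The single removals gave 3 contrasts worth setting out by library, though none was called. With Hnf4a removed, 0 of 7 genes were called, against a background of 0.00533%. By edgeR, 1 of the 7 and 1130 of all 18775 genes tested had an unadjusted p under 0.05. DESeq2 and limma-voom called 0. Creb3l3 was 0.300, 0.587 and 0.801 CPM, from 2, 4 and 5 reads, below all 4 controls, and its log2 difference was -2.95 (SE 1.03, adjusted p = 0.768). Without the filter on low counts the same value was called (-2.93, adjusted p = 0.0218). The other genes overlapped the controls except Foxa3, at 7.20, 7.78 and 8.17 CPM, which lay just above all of them (log2 difference 0.30, SE 0.34, adjusted p = 0.943).

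With Hnf4g removed, 0 of 7 genes were called, against a background of 0.0959%. By edgeR, 2 of the 7 and 1538 of all 18775 genes tested had an unadjusted p under 0.05. DESeq2 and limma-voom again called 0. Gata4 was 0, 1.23 and 1.25 CPM, below all 4 controls, with a log2 difference of -2.57 (SE 0.90, adjusted p = 0.421), and was called without the filter (adjusted p = 0.0296). Foxa3 was 15.3, 12.2 and 8.18 CPM, above all 4 controls (0.93, SE 0.33, adjusted p = 0.447). Creb3l3 was 0.184, 3.88 and 8.04 CPM, from below the lowest control to just under the highest. Replicate 1 stood apart: it had no Gata4 read, which allows up to 0.551 CPM, the lowest Cdx1 of all libraries (34.4 CPM against 76.2 and 105 in the other 2), and an Aire-stage sum of 4128 CPM against 13046 and 13425. Without it the log2 differences were -2.02 for Gata4 (adjusted p = 0.741) and 0.71 for Foxa3.

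In the linked lists, Hnf4a removal left no gene called in any list. Hnf4g removal left Fabp1, the liver-type fatty acid binding protein, lower in the GATA list (28.2 ± 13.9 to 2.97 ± 0.359 CPM) and Lgals4 and Vil1 lower in the CDX list (63.0 ± 10.6 to 22.5 ± 6.82 CPM and 78.8 ± 20.8 to 34.6 ± 2.97). Lgals4 lost its call without any 1 library other than control mTEClo replicate 1 or Hnf4g-removed replicate 1 (adjusted p = 0.0601 to 0.117), and Vil1 without any other than control mTEClo replicate 1 (0.0654 to 0.178), while Fabp1 was called in all 7 such fits. Of 11 microfold markers 2 were lower in these libraries, with sums of 3287 to 4653 CPM against 4701 to 6118 in controls, and no marker was at 0. Their part was not tested.

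In mTEChi, the double mutant also had 0 of 7 genes called by edgeR, DESeq2 and limma-voom, against a background of 0.635% (0.597% lower and 0.038% higher). An unadjusted p under 0.05 by edgeR was found for 2055 of all 18413 genes tested and for 1 of the 7. That gene was Creb3l3, at 2.92, 13.9, 0.623 and 12.8 CPM, with all 4 libraries below the lowest control of 17.8. The mutant libraries fell into a lower and a higher pair, and the log2 difference of -1.46 (SE 0.61, interval -2.66 to -0.26) was not called (adjusted p = 0.399). Without the filter it was called (-1.47, adjusted p = 0.00197). Hnf4g was 6.61, 5.12, 5.61 and 12.8 CPM in the same 4 libraries, and its relation to Creb3l3 was not tested.

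The other genes overlapped between the mTEChi genotypes. Gata4 was 10.8, 20.8, 7.23 and 15.6 CPM in the double mutant (log2 difference -0.24, interval -0.94 to 0.46), and Cdx1 was 164, 178, 132 and 170 (-0.19, interval -0.45 to 0.068). Cdx2 was 2.61, 1.98, 1.12 and 1.75 CPM (-0.70, SE 0.51), and Foxa2 was 0.922, 1.16, 0.498 and 2.49 (-0.94, SE 0.60). Foxa1, at 12.9, 14.4, 17.4 and 23.4 CPM, and Foxa3, at 2.77, 3.96, 2.24 and 1.50, gave 0.28 (SE 0.24) and -0.26 (SE 0.62). Their adjusted p were 0.608 to 0.923. Linked genes that were lower were Apoc3 and Fabp1 of 12 in the GATA list, Vil1, Mep1a, Lgals4 and Cdh17 of 17 in the CDX list, Pck1, Serpina1b and Ttr of 17 in the FOXA list and Pck1 of 16 in the CREB3L3 list. Ttr went from 30.7 ± 5.91 to 2.21 ± 2.40 CPM, and no gene of these lists was higher. The call of Ttr was lost without control mTEChi replicate 2, 3 or 4 or double-mutant mTEChi replicate 4 (adjusted p = 0.0506 to 0.0833), and that of Serpina1b without double-mutant mTEChi replicate 1 (adjusted p = 0.0549). Microfold markers summed to 2875 to 3400 CPM in the double mutant against 3552 to 4358 in controls, with 1 of 11 lower and none at 0, and their part was not tested.

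The double-mutant effect was compared between the subsets with an interaction term. It called 0 of 7 genes, and DESeq2 and limma-voom called 0, against a background of 0.0597% of 20095 genes (0.0398% with a higher and 0.0199% with a lower effect in mTEChi). An unadjusted p under 0.05 by edgeR was found for 0 of the 7 and for 2298 of the 20095 genes. For Creb3l3 the effect in mTEChi minus that in mTEClo was -0.61 on the log2 scale (SE 1.03, interval -2.62 to 1.41, adjusted p = 0.887), and for Gata4 it was 0.64 (SE 0.79, adjusted p = 0.827). Both intervals are wide. Among linked genes only Apoa4 was called. Its fall was smaller in mTEChi than in mTEClo, by 3.03 on the log2 scale (SE 0.50, adjusted p = 0.0323). In mTEChi it was 71.9 ± 14.2 CPM in control and 40.1 ± 6.63 in double-mutant libraries. That call was lost in 10 of 16 fits without 1 library (adjusted p = 0.0538 to 0.0852). It held without control mTEClo replicate 1 or 2, double-mutant mTEClo replicate 3, or double-mutant mTEChi replicate 2, 3 or 4.

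Over all 8 groups, the genes differed in the order of the means. The wild-type gates and the groups from Foxn1cre mice differ in both genotype and sorting, which cannot be told apart in this order. For Creb3l3 the entero-hepato gate stood apart from control mTEChi, and that group from double-mutant mTEChi, which overlapped control mTEClo. For Foxa2 the 4 mTEClo groups stood apart from the rest, while neighbours within each set overlapped. For Gata4, Gata6, Cdx1 and Cdx2 every group overlapped the next in order. Groups further apart in the order can still be free of overlap. Cdx1, for example, was 153 to 216 CPM in control mTEChi and 52.5 to 80.1 in control mTEClo. For Foxa3, control mTEClo stood apart from the Hnf4a-removed group above it and from the outside gate below it. For Foxa1 only the gap above the outside-gate group was free of overlap, where all other groups reached at least 12.1 CPM and the outside gate at most 9.45.

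Genes most like each factor were found by Pearson's r of log2(CPM + 1) over the 28 libraries, whose points share the differences between groups and subsets. Cdx1 was closest to H2-DMb2 (r = 0.967), Nup85 (0.963) and Apobec3 (0.962), and Gata4 to Psg27 (0.893), Pigz (0.892) and H2-DMb1 (0.891). H2-DMb1 and H2-DMb2 encode the chaperone that loads peptides on MHC class II. Creb3l3 was closest to Adap1 (0.889), Dock6 (0.882) and Cd274 (0.879), and Cdx2 to Fabp2, the intestinal fatty acid binding protein (0.761), Sec16b (0.734) and Enpp3 (0.725). Foxa1 was closest to Kctd12 (0.880), Rnf13 (0.870) and Atg3 (0.848), Foxa2 to Unc5d (0.921), Tanc2 (0.919) and Sos1 (0.910), and Foxa3 to Adgrg1 (0.889), Yipf3 (0.866) and Slc11a2 (0.842). None of the named genes was another of the 8 factors. Gata6 was not compared, since its mean was under 1 CPM. Among the factors themselves, r was 0.740 for Gata4 with Cdx1 and 0.727 for Gata4 with Creb3l3, and -0.838 for Cdx1 with Foxa2.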

How the data were processed

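RNA of 28 libraries of sorted mouse mTECs was primed with oligo(dT), amplified and read as paired ends without strand or molecular identifiers, per the labels' protocols. The deposited values are raw counts of reads for each gene symbol, without normalization, which the authors made with STAR 2.7.3a, featureCounts and build mm10, per the submitters' processing notes. PCR copies thus count as reads, and limits on counts of 0 cover counting error only. The 8 genes and the lists were chosen with earlier results of these data known.

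Differences were assessed by the quasi-likelihood test of edgeR 4.0.16 (R 4.3.3) after TMM scaling and filterByExpr (minimum count 10, minimum total 15), with Benjamini-Hochberg adjustment over all genes tested. The wild-type gates, the 14 mTEClo and the 8 mTEChi libraries had fits of their own, and 16 libraries entered the comparisons across subsets. CPM were scaled by TMM over all libraries. Intervals labelled 95% are 1.96 SE to either side, which takes no account of the few degrees of freedom of the test. They are therefore narrower than true 95% intervals and overstate precision. Calls rest on the test and not on these intervals. Alternatives were DESeq2 1.42.0, limma-voom (limma 3.58.1), no filter, a replicate block, a fit on the 2 groups compared, leaving out each library and, added later, plain totals. The named genes were the 8 factors, the 3 genes most like each (mean of at least 5 CPM) and up to 3 called genes of smallest p per list, and all called genes of a list were named, after their values were seen, where few were called. Linked genes called as lower in the gate were also named after their values were seen. Gene positions are from GENCODE M21. The test was checked on simulated counts. Libraries were grouped by the labels, which number the thymi without stating separate animals. The p-values therefore cover only the spread among these libraries, and that spread may be technical. None of 36 replicate pairs matched within sampling noise (chi-square per degree of freedom at least 5.93).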

Additional observations from a re-analysis of the deposited data

Results flagged for a closer look

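The highest or lowest library of a group stood far from the others in 3 of the 32 groups of 4 checked. The rule was Dixon's ratio at the 95% level. Chance alone gives about 1 in 20 for normally spread values, which does not hold for counts near 0. Gata6 was 1.04 CPM in control mTEClo replicate 3, where the other 3 libraries had no read, so that any read would have been flagged. Gata6 was also high in double-mutant mTEClo replicate 3, at 1.85 CPM against 0.148 to 0.294 in the other 3. Cdx2 was 3.24 CPM in control mTEClo replicate 2, where the other 3 were at 1.58 to 1.63. All 3 values rest on low counts.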

How the results depend on the processing

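Counts of called factors kept within 1.5 times in 35 of 38 alternatives that left out no library. The other 3 were fits without the filter on low counts, which called 1 gene instead of 0 for Hnf4a removal (Creb3l3), Hnf4g removal (Gata4) and the mTEChi double mutant (Creb3l3). The cause was not tested. Leaving out 1 library gave 2 to 5 calls for control mTEChi against mTEClo, 3 to 4 for the wild-type gates and 0 for every mutant comparison. Foxa3 in the entero-hepato gate lost its call with no filter (1.26, adjusted p = 0.0778), with a replicate block (1.27, adjusted p = 0.0595) and on plain totals. Directions turned for differences near 0: Cdx1 in the entero-hepato gate on plain totals (-0.33), Cdx1 with Hnf4g removed by limma-voom (-0.0049), Foxa3 in the mTEChi double mutant by limma-voom (0.14) and Creb3l3 with Hnf4g removed under the replicate block (0.18).

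Leaving out 1 library turned 20 more values, none of them called. In the entero-hepato gate Cdx1 ranged from -0.079 to 0.18 and Foxa2 from -0.23 to 0.25. Foxa2 in double-mutant mTEClo ranged from -0.030 to 0.38, and Cdx2 with Hnf4a removed from -2.32 to 0.077. With Hnf4g removed, Cdx1 ranged from -0.31 to 0.41, Foxa1 from -0.034 to 0.20, Foxa2 from -0.22 to 0.17 and Creb3l3 from -1.11 to 0.44. Foxa3 in double-mutant mTEChi ranged from -0.61 to 0.14, and in the interaction Foxa1 ranged from -0.12 to 0.19 and Creb3l3 from -1.08 to 0.082. Creb3l3 in the entero-hepato gate stayed at 5.76 to 6.78 and Gata4 at 2.72 to 3.04.

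Calls over all genes moved past 1.5 times in the mutant comparisons. The double mutant in mTEClo had 139 calls, and 456 with DESeq2, 967 with no filter and 295 in a fit on its 2 groups. In mTEChi 117 became 439 with DESeq2 and 619 with no filter. Hnf4g removal went from 18 to 143, 482 and 27 with those 3 choices, and Hnf4a removal from 1 to 8, 212 and 0. The interaction had 12 calls, 360 with DESeq2, 321 with no filter, 4 with limma-voom and 5 with the replicate block. Leaving out 1 library moved the double mutant in mTEClo to between 47 (without double-mutant mTEClo replicate 2) and 207 (without control mTEClo replicate 1), the double mutant in mTEChi to between 71 (without control mTEChi replicate 4) and 188 (without double-mutant mTEChi replicate 3), Hnf4g removal to between 9 (without control mTEClo replicate 2 or 3) and 23, Hnf4a removal to 0 or 1, and the interaction to between 1 (without control mTEChi replicate 4) and 157 (without double-mutant mTEChi replicate 3). The shares of all genes called in those comparisons move with these counts. Same-numbered libraries deviated together only weakly (r from -0.029 to 0.22), so the numbers were not used as pairs. The block left 3 factors called in the gates and 5 in control mTEChi against mTEClo. Depth limits Gata6, Cdx2 and, in mTEClo, Creb3l3 and Gata4, which rest on few reads.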
